A study of Mus musculus with 29 samples.

Results

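The 7 genes described here encode unconventional myosins of the sensory hair cell, namely Myo3a, Myo3b, Myo6, Myo7a, Myo15, Myo10 and Myo1c. They were taken as a named list, and a binding site was given to a gene when the summit of a deposited peak lay in the gene body or within 50 kb of it in the mouse genome build mm9. By this rule 158 of the 175162 kept summits in 9 peak lists were at the 7 genes, out of 22367 protein-coding genes of the annotation. All 7 genes were found in the annotation by symbol and their windows, which cover 1.90 Mb, do not overlap each other. Proximity within 50 kb does not show that a site acts on the gene, so the gene with the nearest annotated transcription start is given for each named site that lies closer to another gene.

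The lists come from chromatin immunoprecipitation with sequencing (ChIP-seq) of embryoid bodies, aggregates of differentiating mouse embryonic stem cells, and not from hair cells. The 6 stem cell lines carried a doxycycline-inducible transgene for Atoh1 (iAtoh1), Pou4f3 (iPou4f3), Gfi1 and Atoh1 (iG+A), Gfi1 and Pou4f3 (iG+P), Pou4f3 and Atoh1 (iP+A), or all the factors together (iGPA), each joined to the fluorescent protein Venus. All libraries came from day 6 embryoid bodies given 2 µg/ml doxycycline for 48 h, and no list from cells without doxycycline was used. FLAG-tagged Atoh1 was precipitated from iAtoh1, iG+A, iP+A and iGPA cells, and Myc-tagged Pou4f3 from iPou4f3, iG+P, iP+A and iGPA cells. Gfi1 was precipitated from iGPA cells with an antibody to the protein itself. There were 17 ChIP and 12 input libraries, with 2 ChIP libraries a group described as separate clones of a line, and 1 library for Gfi1.

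Unconventional myosins are motors that move along actin, the filament that fills the stereocilia of the hair bundle. Myo7a is found at the upper end of the tip link, Myo15 carries proteins needed for growth to the stereocilia tips, and Myo3a and Myo3b also work at the tips. Myo6 moves towards the opposite end of the filament and anchors the base of the stereocilia, Myo1c was described as a motor of mechanical adaptation, and Myo10 is best known from the tips of filopodia. Myo6 and Myo7a are standard markers of hair cells. Atoh1 is a basic helix-loop-helix factor that binds E-boxes and starts hair cell development, Pou4f3 is a POU homeodomain factor needed for hair cells to mature and survive, and Gfi1 is a zinc finger repressor that hair cells also need.

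Each list was called on merged replicates, so no value has a spread between replicates and no test between lines or factors could be made. All comparisons below are therefore counts and values set side by side, and intervals on shares are exact Clopper-Pearson 95% intervals that cover counting error only. The sequencing depth of the libraries is unknown from the files. The lists hold from 3012 kept summits for Gfi1 to 32632 for Pou4f3 in iG+P cells, and the 4 Atoh1 lists hold 15568 in iAtoh1 cells, 20504 in iG+A cells, 18949 in iP+A cells and 26231 in iGPA cells. A longer list finds more sites anywhere, and fold enrichment over input depends on the depth of both libraries. For this reason the rank of a summit is also given, as the percentage of kept peaks in its own list with a lower −log10 p.

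The sites on which the results turn are shown first as 30 bases around the sequence pattern nearest to the strongest summit, in mm9 and on the strand of the myosin gene. Capitals mark matches to the E-box (CAGCTG or CAGATG on either strand) in this first set, chosen because they lie at the Atoh1 sites named below. Other forms of the E-box, such as CAGGTG, were not searched for. In all that follows, an E-box or its absence refers to CAGCTG and CAGATG only. Only sites with an E-box are shown, and some named Atoh1 sites hold none. Other named Atoh1 sites hold an E-box but are not shown. The E-box of the Myo3b site lies 105 bp from its strongest summit.
Myo6, intron, chr9:80072126-80072155: tggttgggtgaaCAGATGtccttgagaagg
Myo6, intron, chr9:80125115-80125144: agcctctgccagCAGATGgcctcttctctt
Myo7a, gene start, chr7:105267973-105268002, minus strand: gtgcaggctggaCAGCTGccctgaacagaa
Myo7a, first part of the gene, chr7:105266917-105266946, minus strand: tgggcagaggatCAGATGtcccagtgcctc
Myo7a, upstream in Capn5, chr7:105302620-105302649, minus strand: gccagggtcacaCAGCTGtcaccgcagctt
Myo10, gene start, chr15:25552489-25552518: agaatgtgccacCAGCTGttctcctcccgg
Myo10, intron, chr15:25580314-25580343: cctcttatctggCATCTGtgactgttgaca
Myo10, intron, chr15:25704670-25704699: ccagagacagggCAGCTGttccatcagggt
Myo3b, upstream in Ubr3, chr2:69832350-69832379: tggcagggaagcCAGATGctctggcctctc

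The second set lies at sites with Pou4f3 in 3 or 4 lines. Capitals mark matches to the Pou4f pattern, ATAATTAAT on either strand with at most 1 mismatch. Only sites with a match are shown, and some sites with Pou4f3 in 3 or 4 lines, at Myo15, Myo10 and Myo3b, hold none. Sites 92.8 kb into Myo10 and 42.8 kb upstream of Myo1c hold a match but are not shown.
Myo6, intron near the start, chr9:80013248-80013277: aattgataccATTAATAATttagctgtgtc
Myo6, intron, chr9:80016375-80016404: aatttactttATTAATTATttacttgtgtg
Myo6, intron, chr9:80066586-80066615: gtctccatgaATAATTTATattctactgat
Myo3b, gene start, chr2:69877106-69877135: ctggcgacttATTCATTATtcatctctttt
Myo3b, last part of the gene, chr2:70263906-70263935: ttcacggtgaATAATTGATgtggtttatca
Myo3b, downstream, chr2:70285144-70285173: agtagcATTAATAATTAATacaacacaccc
Myo10, upstream, chr15:25533291-25533320: ggctgtctacATAATTTATgggaaccagtg
Myo10, downstream in Fam134b, chr15:25775443-25775472: tggattttgcATAATTAATgtaaagagttg
Myo15, downstream in Alkbh5, chr11:60357706-60357735: ctggccatgaATAAATTATggtcctatttt

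The 7 genes differed in which factor was found at them. Myo10 had the most kept summits, 50 over the 9 lists, with Atoh1 and Pou4f3 in every line. Myo3b had 32, Myo15 28 and Myo6 24, and at these 3 genes the Pou4f3 lists held more summits than the Atoh1 lists. Myo7a had 10 summits and all of them were Atoh1. Myo1c had 10, spread over 7 lists, and Myo3a had 4 in its window of 425 kb.

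**Figure D1:**
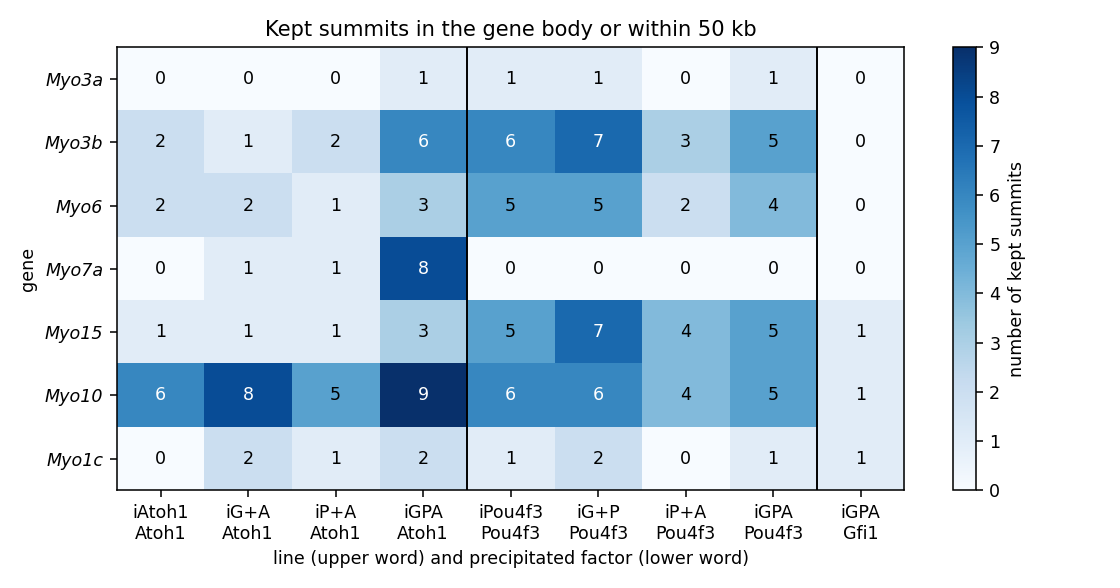
Number of kept summits in the body of each gene or within 50 kb of it (rows) in each of the 9 lists (columns, line above and precipitated factor below). Myo7a holds 8 summits in the iGPA Atoh1 list and 0 in the Pou4f3 and Gfi1 lists, whereas Myo10 holds between 5 and 9 in the Atoh1 lists and between 4 and 6 in the Pou4f3 lists.

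All 7 genes had at least 1 Atoh1 summit in iGPA cells, where 72.2% of all protein-coding genes had one under the same rule. In iAtoh1 cells 4 of the 7 had one (53.1% of all genes), and in iG+A and iP+A cells 6 of the 7 (65.7% and 62.7% of all genes). For Pou4f3, 6 of the 7 genes had a summit in iPou4f3, iG+P and iGPA cells, where 72.8%, 76.6% and 63.2% of all genes did, and 4 of the 7 in iP+A cells, where 58.8% did. Gfi1 summits were at 3 of the 7 genes, against 23.2% of all genes. The windows of the 7 genes, from 124 to 490 kb long, are all longer than the median window of 115 kb over all protein-coding genes.

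Counted per length, in iGPA cells the myosin windows held 16.8 Atoh1 summits per Mb against 13.7 in the windows of all protein-coding genes, and in iAtoh1 cells 5.78 against 7.88. Pou4f3 summits were at 12.6 per Mb against 11.2 in iPou4f3 cells and at 11.03 against 8.78 in iGPA cells, and Gfi1 summits at 1.58 against 1.59. The ratio of both densities ran from 0.604 for Atoh1 in iP+A cells to 1.26 for Pou4f3 in iGPA cells. As a share of its list, the 32 Atoh1 summits of iGPA cells made up 0.122% (95% interval 0.0835 to 0.172%) and the 11 of iAtoh1 cells 0.0707% (0.0353 to 0.126%), so the intervals of these shares overlap.

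**Figure D2:**
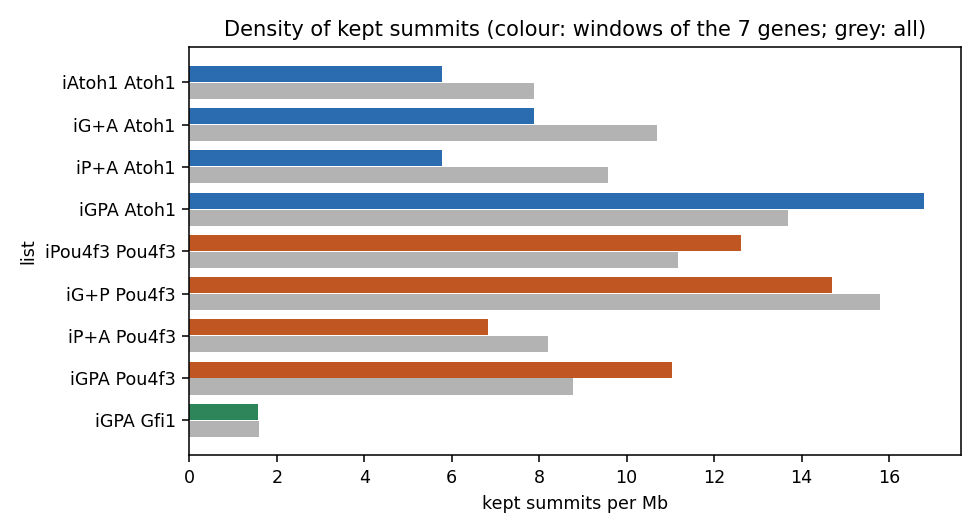
Kept summits per Mb (horizontal axis) in the windows of the 7 myosin genes (coloured bars) and in the joined windows of all protein-coding genes (grey bars) for each list. The coloured bar is longer than the grey bar for Atoh1 in iGPA cells and for Pou4f3 in iPou4f3 and iGPA cells, and shorter or nearly as long in the other lists.

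Among the genes, density over all 9 lists ran from 9.42 summits per Mb at Myo3a to 176 at Myo15 and 172 at Myo10, against 87.4 over all protein-coding windows. Myo10 was the densest for Atoh1, with 96.2 summits per Mb over the 4 Atoh1 lists against 41.8 overall. Myo15 was the densest for Pou4f3, with 132 against 44.0 overall.

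When the 300 bp windows around summits were joined across lists, the 158 summits fell into 74 sites. Of these sites, 42 lay in a myosin gene body, 19 upstream and 13 downstream. The nearest annotated start was that of the myosin gene at 41 sites and that of another gene at 33. Summits of a site seen in 3 or more lists had a median spread of 46 bp over 25 such sites (range 8 to 300 bp). The joining itself keeps neighbouring summits of a site less than 300 bp apart. A site was found in a single list in 41 of 74 cases. This share was not counted over all sites, so it is not a trait of these genes. Single-list shares within the Atoh1 and the Pou4f3 lists are given below beside those of all sites.

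**Figure D3:**
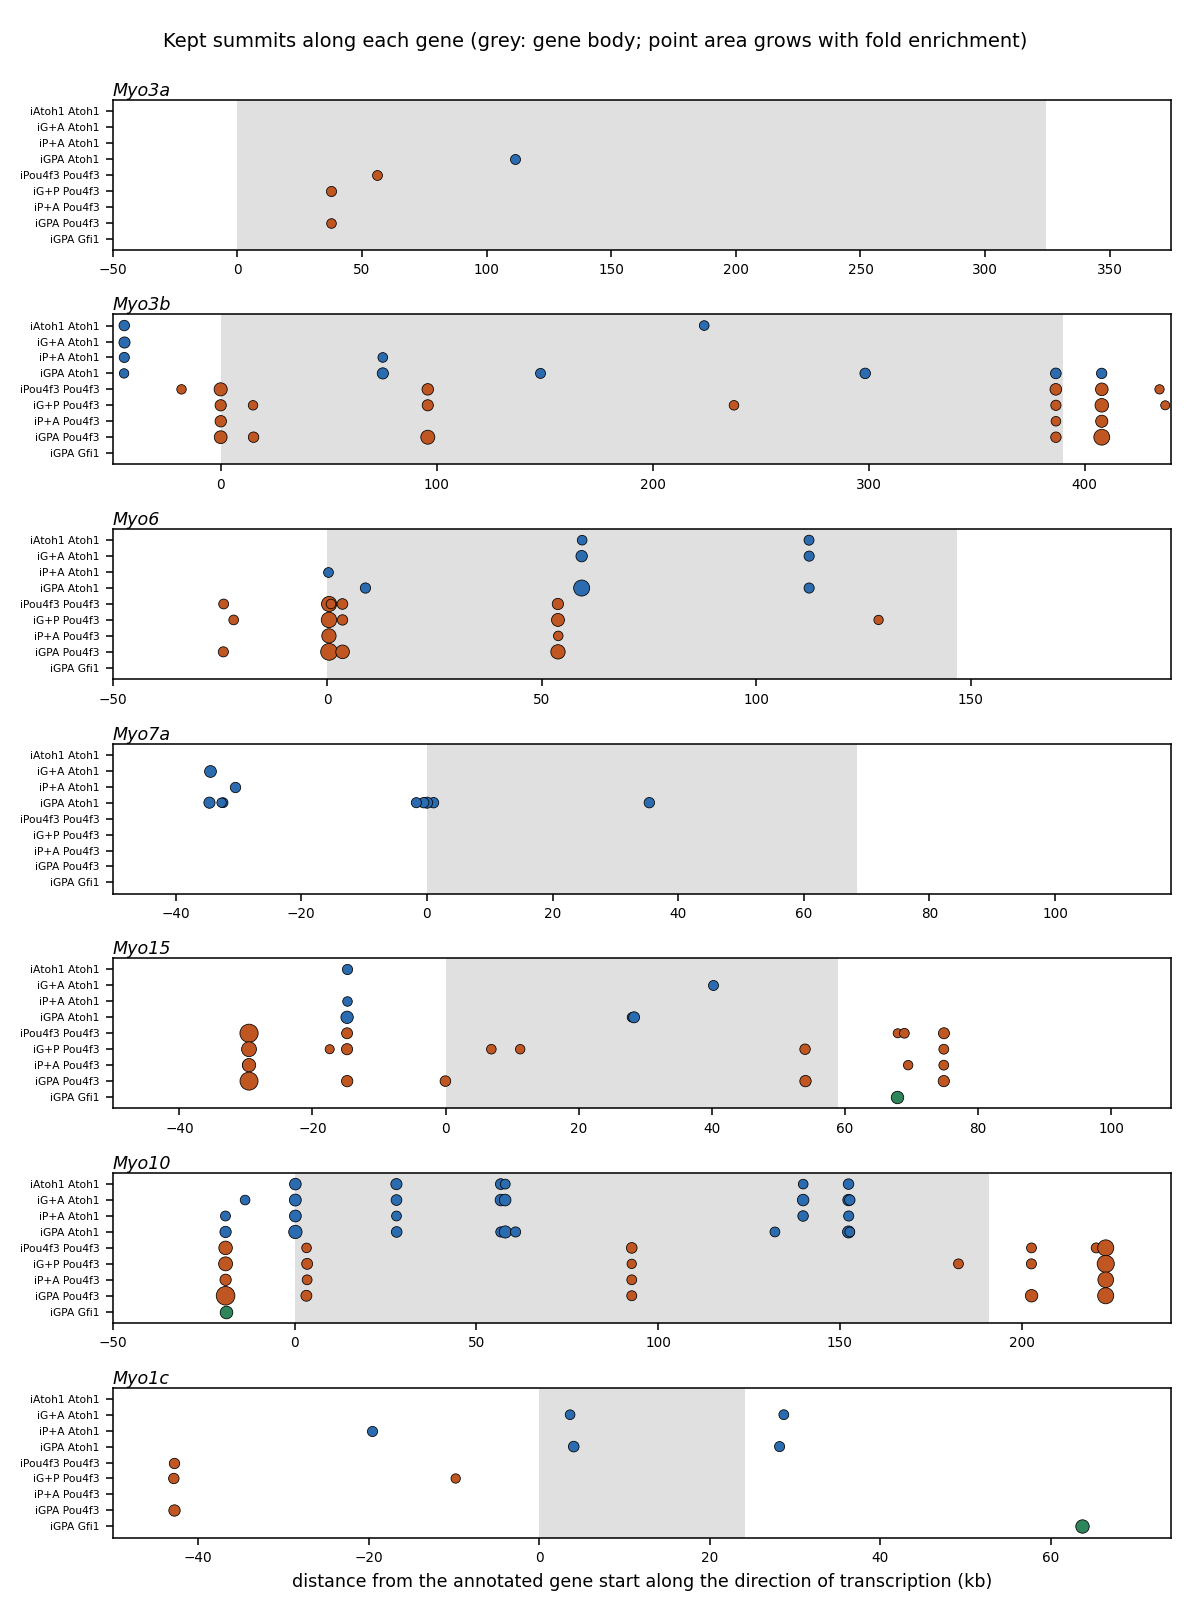
Kept summits along each gene, with the distance from the annotated gene start in the direction of transcription on the horizontal axis (kb) and the lists on the vertical axis (blue, Atoh1; orange, Pou4f3; green, Gfi1; grey band, gene body). Point area grows with fold enrichment. Vertical stacks of orange points at Myo6, Myo3b, Myo15 and Myo10 are sites with Pou4f3 in all 4 lines, and at Myo7a the row of 8 iGPA Atoh1 points has no counterpart in the Pou4f3 rows.

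Myo6 (ENSMUSG00000033577.10, chr9:80012838-80159536, plus strand) had its strongest Pou4f3 site in an intron 0.387 kb after the annotated start. The fold enrichment there was 8.80 in iPou4f3 cells, 9.19 in iG+P cells, 7.70 in iP+A cells and 11.1 in iGPA cells. These summits were among the strongest of each list, with ranks of 95.6%, 98.0%, 97.6% and 94.3%. The site holds ATTAATAAT, shown above, and Atoh1 was found on its edge only in iP+A cells, at a fold of 2.90 and 179 bp from the Pou4f3 summit. The 200 bases around the strongest summit are given because this is the strongest Pou4f3 site within 1 kb of the start of any of the 7 genes, with the pattern in capitals.
Myo6 intron, chr9:80013125-80013324: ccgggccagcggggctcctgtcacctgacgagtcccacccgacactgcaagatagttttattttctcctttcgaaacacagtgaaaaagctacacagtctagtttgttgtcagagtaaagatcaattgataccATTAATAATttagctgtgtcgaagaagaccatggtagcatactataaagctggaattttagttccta

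A second Pou4f3 site of Myo6, 53.8 kb into the gene, was also present in all 4 lines. Its fold was 4.28 in iPou4f3 cells, 6.02 in iG+P cells, 2.72 in iP+A cells and 7.72 in iGPA cells, so iP+A was again the lowest. The site 3.56 kb after the start was found in iPou4f3 (3.68), iG+P (3.39) and iGPA cells (6.84) and no peak was called there in iP+A cells. Within 1 kb of an annotated start there were also weak single-list Pou4f3 summits 0.858 kb after the gene start in iPou4f3 cells (fold 2.73) and in a coding exon 321 bp before an internal start in iG+P cells (fold 2.52).

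The strongest Atoh1 site of Myo6 lay in an intron 59.3 kb into the gene. Its fold was 2.81 in iAtoh1, 4.41 in iG+A and 9.97 in iGPA cells, with ranks of 17.7%, 80.2% and 96.0%. No peak, kept or left out, was called there in iP+A cells. This was the strongest Atoh1 summit at any of the 7 genes, and the 200 bases around it hold 1 E-box, in capitals.
Myo6 intron, chr9:80072031-80072230: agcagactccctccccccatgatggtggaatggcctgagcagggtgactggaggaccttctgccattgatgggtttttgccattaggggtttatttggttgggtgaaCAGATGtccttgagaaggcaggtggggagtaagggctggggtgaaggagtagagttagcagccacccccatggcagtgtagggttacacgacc
A weaker Atoh1 site 112 kb into the gene had the same lines, with folds of 3.05 in iAtoh1, 3.20 in iG+A and 3.20 in iGPA cells and no called peak in iP+A cells.

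Myo7a (ENSMUSG00000030761.9, chr7:105199570-105268034, minus strand) carried Atoh1 and no Pou4f3 or Gfi1. Of all protein-coding genes 15.0% had no kept summit in any of the 4 Pou4f3 lists, and 6.57% had as many iGPA Atoh1 summits as Myo7a. The number of Atoh1 summits was 0 in iAtoh1 cells, 1 in iG+A cells, 1 in iP+A cells and 8 in iGPA cells. The iGPA count was the highest of the 4, in the longest of the Atoh1 lists. It was 5 when the lists were cut to equal length, 3 in the gene body alone and 2 at a −log10 p of 10 or more, where iG+A cells had 1. With 100 kb on each side, iG+P cells had 1 Pou4f3 summit.

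In iGPA cells, 4 of the Atoh1 summits of Myo7a lay within 2 kb of the gene start. The summit at the start itself, in an untranslated region, had a fold of 4.06 and a rank of 63.9%. Those 0.515 kb before it and 1.05 kb after it each had a fold of 3.45, and that 1.68 kb before it a fold of 3.20. The sites 0.515 and 1.68 kb before the start held no E-box in the 250 bp around their summits. A further summit 35.4 kb into the gene, 600 bp from an internal start, had a fold of 3.45, equal to the median fold of the whole iGPA Atoh1 list, and these folds take only a few values, so that several summits share one. All these sites were found in the iGPA list alone.

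The only Atoh1 site of Myo7a in more than 1 line lay 34.6 kb before its start, in an intron of the neighbouring gene Capn5, whose start is nearer (8.09 kb). Its fold was 4.81 in iG+A cells (rank 85.0%) and 4.18 in iGPA cells (rank 66.7%). The 200 bases around the strongest summit hold 3 E-boxes, in capitals, and are shown on the strand of Myo7a.
Myo7a upstream, chr7:105302535-105302734: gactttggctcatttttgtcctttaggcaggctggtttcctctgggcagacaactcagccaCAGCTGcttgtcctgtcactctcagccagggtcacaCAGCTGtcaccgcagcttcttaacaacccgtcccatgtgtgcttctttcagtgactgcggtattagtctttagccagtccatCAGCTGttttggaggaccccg
Another 2 sites also lay in intron sequence of Capn5. A pair of neighbouring iGPA summits 32.5 kb before the start had folds of 2.95 and 2.58. The only iP+A summit, 30.6 kb before the start, had a fold of 3.44. The nearest start to both sites was that of Omp.

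Myo15 (ENSMUSG00000042678.10, chr11:60282841-60341871, plus strand) had mostly Pou4f3 sites, and the strongest lay outside the gene. The site 29.5 kb upstream, in an intron of 4933439F18Rik and nearest to a start of Gm12268 (6.94 kb), had a Pou4f3 fold of 13.3 in iPou4f3 cells, 8.41 in iG+P cells, 6.57 in iP+A cells and 12.96 in iGPA cells. The ranks of these summits were between 96.2% and 98.5%. The iP+A list held another, weak summit at the edge of the site, with a fold of 2.38 and a rank of 0.0234%. No match to the E-box, Pou4f or Gfi1 pattern was found in the 250 bp around this summit, and its 200 bases are shown for that reason.
Myo15 upstream, chr11:60253208-60253407: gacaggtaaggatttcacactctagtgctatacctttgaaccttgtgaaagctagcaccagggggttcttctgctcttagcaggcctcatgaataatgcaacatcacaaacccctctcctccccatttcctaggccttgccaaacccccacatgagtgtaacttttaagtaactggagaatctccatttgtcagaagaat

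Nearer to the gene, 14.8 kb upstream and 49 bp from an annotated start of Drg2, Atoh1 and Pou4f3 were found at the same place. The Atoh1 fold was 3.30 in iAtoh1, 2.70 in iP+A and 5.41 in iGPA cells, and the Pou4f3 fold 3.96 in iPou4f3, 4.16 in iG+P and 4.36 in iGPA cells. In iGPA cells both summits were 12 bp apart. In the iP+A Pou4f3 list a peak was called over this site but was not among the kept ones.

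At the start of Myo15 itself only iGPA cells had a Pou4f3 summit, 24 bp before the start, with a fold of 3.64 and a rank of 30.6%. Near internal starts there were single-list summits of Pou4f3 in iG+P cells (638 bp from a start, fold 2.63) and of Atoh1 in iG+A cells (14 bp from a start, in a coding exon, fold 3.07). Downstream, in an intron of Alkbh5 and 74.9 kb from the Myo15 start, Pou4f3 was in all 4 lines with folds of 4.04 in iPou4f3 cells, 2.96 in iG+P cells, 2.94 in iP+A cells and 4.22 in iGPA cells. The Gfi1 summit of Myo15 lay 791 bp from an annotated start of Alkbh5, with a fold of 5.498 and a rank of 71.9%.

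Myo3b (ENSMUSG00000042064.6, chr2:69877183-70267255, plus strand) had Pou4f3 at its start and at its far end in all 4 lines. At 64 bp before the start, over an exon of the noncoding Gm13631, the fold was 6.30 in iPou4f3 cells, 4.27 in iG+P cells, 4.42 in iP+A cells and 5.92 in iGPA cells, with ranks between 81.2% and 89.9%. It was the only site within 1 kb of a Myo3b start and held no Atoh1 summit in any line. At 408 kb, downstream of the gene, the Pou4f3 fold was 5.71 in iPou4f3 cells, 6.79 in iG+P cells, 5.21 in iP+A cells and 9.76 in iGPA cells, and this was its strongest site.

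At the downstream site Atoh1 was found with Pou4f3 in iGPA cells. Its Atoh1 fold in iGPA cells was 3.45 (rank 44.5%), 48 bp from the Pou4f3 summit, and no Atoh1 peak was called there in iAtoh1, iG+A or iP+A cells. The 200 bases around its strongest summit hold overlapping matches to the Pou4f pattern, in capitals, and no E-box.
Myo3b downstream, chr2:70285062-70285261: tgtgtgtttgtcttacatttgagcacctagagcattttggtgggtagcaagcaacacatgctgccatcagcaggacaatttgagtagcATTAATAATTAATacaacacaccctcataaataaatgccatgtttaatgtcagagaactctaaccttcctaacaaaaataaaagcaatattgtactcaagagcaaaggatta
The same lines were seen in the last part of the gene, 387 kb from the start. There Pou4f3 had folds of 4.64 in iPou4f3 cells, 3.28 in iG+P cells, 2.72 in iP+A cells and 3.495 in iGPA cells and Atoh1 a fold of 3.69 in iGPA cells alone. At both sites the nearest annotated start was that of the pseudogene Rpl9-ps7.

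The other shared sites of Myo3b held 1 factor each. Pou4f3 was found 95.9 kb into the gene in iPou4f3 (4.52), iG+P (4.16) and iGPA cells (7.28), with no called peak in iP+A cells. Atoh1 was found in all 4 lines 44.7 kb upstream, 701 bp from a start of Ubr3, with folds of 3.54 in iAtoh1 cells, 4.14 in iG+A cells, 3.23 in iP+A cells and 2.58 in iGPA cells, so that iGPA was the lowest here. This site lies in a tandem repeat with a unit of 39 bp, found around the summits of iAtoh1, iG+A and iP+A cells when units of up to 60 bp were searched in 200 bp, and no other summit at the 7 genes met that rule. The strongest Atoh1 summit of Myo3b was 75.0 kb into the gene in iGPA cells, with a fold of 4.18.

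Myo10 (ENSMUSG00000022272.11, chr15:25552280-25743428, plus strand) held 11 of the 25 sites found in 3 or more lists. At its start, 0.222 kb after the first annotated start and in an untranslated region, Atoh1 was found in all 4 lines with folds of 4.64 in iAtoh1 cells, 4.94 in iG+A cells, 4.84 in iP+A cells and 6.52 in iGPA cells. The ranks there were between 85.9% and 88.2%. It was the only Atoh1 site in all 4 lines within 1 kb of the first annotated start of any of the 7 genes, and no kept Pou4f3 summit was found at it. In iPou4f3 cells a Pou4f3 peak with a fold of 2.87 was called at its edge, at chr15:25552641-25552919, but was not among the kept ones.

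Inside the gene Atoh1 was in all 4 lines at 28.0 kb (folds from 2.90 in iP+A to 4.15 in iAtoh1 cells) and at 152 kb, 940 bp from an internal start (from 3.23 in iP+A to 5.05 in iGPA cells). At 56.8 and 57.9 kb, nearest to a start of Gm2862, it was found in iAtoh1, iG+A and iGPA cells, with folds between 2.93 and 5.17, and no peak was called in iP+A cells. At 140 kb it was found in iAtoh1 (2.81), iG+A (4.54) and iP+A cells (3.55), with no called peak in iGPA cells. Pou4f3 was in all 4 lines at 3.46 kb and 92.8 kb into the gene, with folds between 2.52 and 3.94, and 1 summit of the former lay in a short tandem repeat.

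The strongest site of Myo10 lay 19.0 kb upstream and the nearest start was that of Myo10. The Pou4f3 fold was 6.78 in iPou4f3 cells, 7.22 in iG+P cells, 4.30 in iP+A cells and 14.0 in iGPA cells, the last the highest fold of any summit at the 7 genes. Atoh1 was found there in iP+A (3.01) and iGPA cells (4.31), the lines with Pou4f3, and no Atoh1 peak was called there in iAtoh1 or iG+A cells. Gfi1 was found there too, at a fold of 5.72 and a rank of 74.7%, and no other site of the 7 genes held all the factors. In iGPA cells the Atoh1 and Pou4f3 summits were at the same base. The 200 bases shown hold 1 Pou4f match, in capitals, and no E-box.
Myo10 upstream, chr15:25533196-25533395: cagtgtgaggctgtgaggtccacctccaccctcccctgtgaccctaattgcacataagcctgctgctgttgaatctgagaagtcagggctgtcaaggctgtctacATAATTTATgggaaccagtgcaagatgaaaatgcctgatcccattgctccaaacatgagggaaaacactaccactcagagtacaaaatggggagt

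Beyond the end of Myo10, in an intron of Fam134b whose start is 2.43 kb away, Pou4f3 was strong in all 4 lines. The fold was 10.1 in iPou4f3 cells, 11.6 in iG+P cells, 9.51 in iP+A cells and 10.0 in iGPA cells. These were among the top summits of each list, with ranks between 92.7% and 99.04%. An exact match to ATAATTAAT lies 9 bp from the strongest summit. The site at 203 kb from the start, nearest to Fam134b, was found in iPou4f3 (2.97), iG+P (3.17) and iGPA cells (5.53) and not in iP+A cells.

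Myo1c (ENSMUSG00000017774.12, chr11:75464006-75488134, plus strand) had 8 sites, and 6 of them lay nearer to the start of another gene. Its only site in 3 or more lists was a Pou4f3 site 42.8 kb upstream in an intron of Pitpna (nearest start Gm12338, 7.70 kb away), with folds of 3.45 in iPou4f3, 3.503 in iG+P and 4.37 in iGPA cells. No summit lay within 1 kb of a Myo1c start. Its strongest Atoh1 summit, 4.06 kb into the gene in iGPA cells, had a fold of 3.69. The Gfi1 summit 63.7 kb from the start, between genes and nearest to Ywhae, had a fold of 6.60 and a rank of 83.5%, the strongest of all summits at Myo1c.

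Myo3a (ENSMUSG00000025716.8, chr2:22149130-22473772, plus strand) had 3 weak intronic sites and none within 1 kb of a start. Pou4f3 was found 37.5 kb into the gene in iG+P (fold 3.17) and iGPA cells (2.77) and 56.1 kb into it in iPou4f3 cells (2.97), and Atoh1 at 111 kb, nearest to Gm13342, in iGPA cells (3.08). None of these exceeded a rank of 54.7%. A further 20 peaks were called in the last part of Myo3a but are not in the summit lists. They are described among the closing observations and enter only the counts made with all called peaks.

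**Figure D4:**
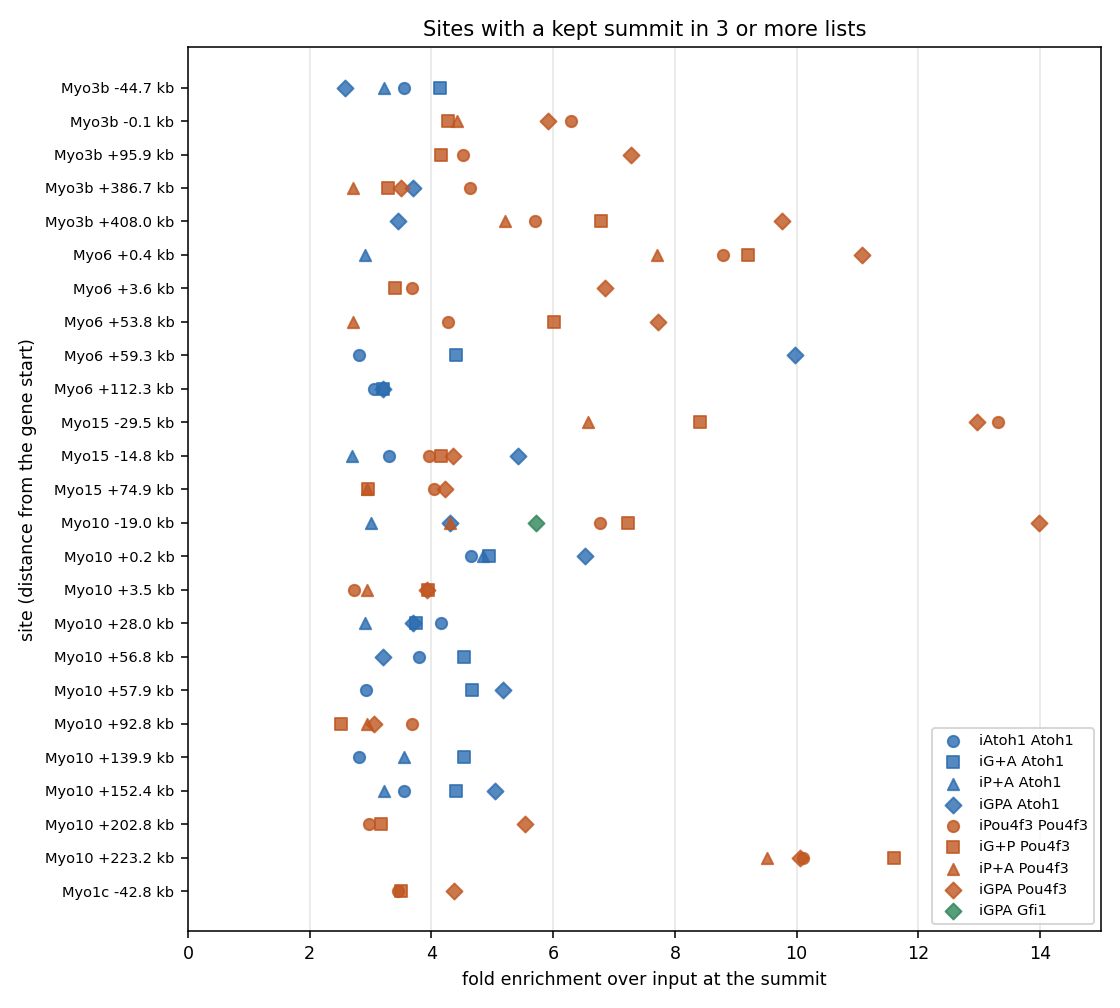
Fold enrichment over input (horizontal axis) at each of the 25 sites found in 3 or more lists (vertical axis, named by gene and distance from its start). Colours give the factor and symbols the line (circle, 1 factor; square, with Gfi1; triangle, iP+A; diamond, iGPA). The orange triangle, Pou4f3 in iP+A cells, is the leftmost orange symbol at 8 of the 11 sites with Pou4f3 in all 4 lines. Median folds also differ between the whole lists, and this order was not counted over all sites.

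Over the sites of all 7 genes, 26 of the 40 Atoh1 sites were in a single Atoh1 list (65.0%, interval 48.3 to 79.4%, beside 54.7% of all Atoh1 sites) and 18 of the 38 Pou4f3 sites in a single Pou4f3 list (47.4%, interval 30.98 to 64.2%, beside 53.1%). Of the 31 Atoh1 sites of iGPA cells, 9 were also in iAtoh1 cells, which is 29.0% (95% interval 14.2 to 48.0%) beside 32.0% of all iGPA Atoh1 sites. A total of 18 of the 31 were in no other Atoh1 list, which is 58.1% (39.1 to 75.5%) beside 36.2% of all such sites. Myo7a held 6 of these 18 and Myo3b 4, and the other 5 genes held 1 or 2 each. When each list was limited to its strongest 15568 peaks, 9 of 18 iGPA Atoh1 sites were in no other Atoh1 list (95% interval 26.0 to 74.0%), beside 27.3% of all sites treated in the same way. The iGPA-only summits had a median fold of 3.32 and a median rank of 38.8%, against 4.18 and 66.7% for the iGPA summits shared with another line.

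Atoh1 was in all 4 lines at 4 of its 40 sites (10.0%, interval 2.79 to 23.7%), beside 10.7% of all Atoh1 sites, and 3 of these are at Myo10. The fourth is the Myo3b site in the 39 bp repeat, and without summits in such repeats 3 of the 40 sites had Atoh1 in all 4 lines. At another 4 sites, 2 at Myo6 and 2 at Myo10, it was in iAtoh1, iG+A and iGPA cells and not in iP+A cells. This combination made up 10.0% of the 40 sites (interval 2.79 to 23.7%), beside 3.25% of all Atoh1 sites, a share that the interval includes.

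Pou4f3 was in all 4 lines at 11 of its 38 sites (28.9%, interval 15.4 to 45.9%), beside 14.8% of all Pou4f3 sites. Of these 11, 2 are at Myo6, 3 at Myo3b, 2 at Myo15 and 4 at Myo10. At 5 more of the 38 sites Pou4f3 was in each line but iP+A (13.2%, interval 4.41 to 28.1%). This combination made up 6.00% of all Pou4f3 sites, a share that the interval includes. Of the 21 Pou4f3 sites of iGPA cells 17 were also in iPou4f3 cells (81.0%, interval 58.1 to 94.6%), beside 59.2% of all iGPA Pou4f3 sites. At the 11 common sites the fold was highest in iGPA cells at 5, in iPou4f3 cells at 4 and in iG+P cells at 2, and lowest in iP+A cells at 8. The median rank at these sites was 87.3% in iPou4f3 cells, 93.4% in iG+P cells, 83.1% in iP+A cells and 86.5% in iGPA cells. The order of folds was not counted over all sites with Pou4f3 in all 4 lines. Median folds of the whole lists also differed, with 3.33 in iPou4f3 cells, 2.96 in iG+P cells, 3.17 in iP+A cells and 4.08 in iGPA cells.

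Within a line, Atoh1 and Pou4f3 were found together at a minority of the Atoh1 sites, at the myosin genes as over all sites. In iGPA cells 4 of the 31 Atoh1 sites also held Pou4f3 (12.9%, interval 3.63 to 29.8%), beside 16.0% of all iGPA Atoh1 sites. These 4 are the sites upstream of Myo10, upstream of Myo15 and in and beyond the end of Myo3b, and the summits of both factors were between 0 and 48 bp apart. In iP+A cells 2 of 11 did, at Myo10 and at the Myo6 start (18.2%, interval 2.28 to 51.8%), beside 24.2% of all iP+A Atoh1 sites. Both intervals include the share over all sites. When all called peaks were counted, the 2 sites of iP+A cells became 6. The added ones were the site upstream of Myo15 and sites among the left-out Myo3a peaks described in the closing observations. Of the 31-base words in those Myo3a peaks, 77.5% occur in the mitochondrial chromosome. Taking any line for either factor, 5 of the 40 Atoh1 sites also held Pou4f3 (12.5%, interval 4.19 to 26.8%), beside 32.3% of all Atoh1 sites. This interval does not include the share over all sites. Of the 5, 4 held a Pou4f match (interval 28.4 to 99.5%), beside 16.5% of all sites with both factors. An E-box was at 1 of the 5 (interval 0.505 to 71.6%), beside 41.9%. With 5 sites both intervals are wide.

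The sequence patterns separated the factors at the myosin genes as they did over the whole lists. An E-box lay in the 250 bp around 75.0% of the 32 Atoh1 summits of iGPA cells (interval 56.6 to 88.5%) beside 72.9% of all summits of that list, and around 23.8% of the 21 Pou4f3 summits (8.22 to 47.2%) beside 31.3%. All 11 Atoh1 summits of iAtoh1 cells had one (lower bound of the interval 71.5%), beside 59.9% of that list. A Pou4f match lay around 71.4% of the 21 Pou4f3 summits of iGPA cells (47.8 to 88.7%) beside 54.5% of the list, and around 12.5% of the Atoh1 summits (3.51 to 29.0%) beside 9.29%. In the 250 bp centred on the starts of all protein-coding genes, 24.6% hold an E-box and 3.12% a Pou4f match. Starts are an unlike background, because 48 of the 74 sites lay in introns and 12 within 1 kb of a start of the myosin gene. The Pou4f match lay within 50 bp of the strongest summit at 19 of the 22 Pou4f3 sites that had one, and the E-box at 23 of 27 Atoh1 sites. An exact ATAATTAAT was found at 5 Pou4f3 sites. The Gfi1 pattern, AATCACNGC on either strand, was in none of the 3 windows around Gfi1 summits, beside 8.33% of that list. The AtEAM pattern, an extended E-box, was searched as exact matches to RMCAKMTGKY, in the standard letters for ambiguous bases. It was around 21.9% of the iGPA Atoh1 summits beside 18.8% of the list. The paper counted AtEAM motifs with a motif tool and reported them in most peaks shared by iAtoh1 and iGPA cells or unique to iGPA cells. Its shares and those given here are not comparable. The patterns were matched on both strands and can overlap, and a match is a description of the letters in the window, not of binding.

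**Figure D5:**
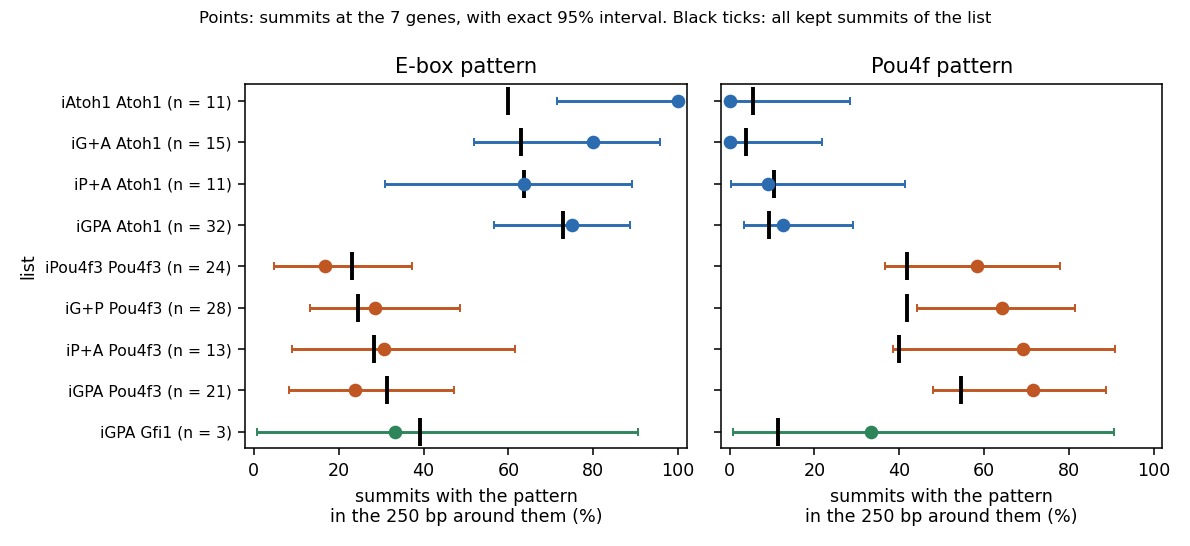
Percentage of summits with an E-box (left) or a Pou4f match (right) in the 250 bp around them, for the summits at the 7 genes (points, with exact 95% intervals and n beside each list) and for all kept summits of the list (black ticks). In iGPA cells the E-box points are at 75.0% for Atoh1 and 23.8% for Pou4f3, and the Pou4f points at 12.5% and 71.4%.

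Related genes were counted by the same rule, from lists drawn up with earlier results of these data known. Among 17 other unconventional myosins, 9 had an Atoh1 summit in iAtoh1 cells, 14 in iG+A cells, 14 in iP+A cells and 16 in iGPA cells, and among 8 proteins that work with the hair bundle myosins the numbers were 3, 7, 7 and 7. Over all protein-coding genes the shares were 53.1%, 65.7%, 62.7% and 72.2% in the same order. For Pou4f3, 16 of the 17 had a summit in iPou4f3, iG+P and iGPA cells and 14 in iP+A cells, and 7, 8, 7 and 8 of the 8 in iPou4f3, iG+P, iP+A and then iGPA cells, beside 72.8%, 76.6%, 58.8% and 63.2% of all genes. The genes with the most summits over the 9 lists were Myo18b with 65, Cdh23, a tip link cadherin, with 46, and Ush1g, a scaffold of the tip link, with 37. At Cdh23 the number of Atoh1 summits was 5 in iAtoh1 cells, 7 in iG+A cells, 7 in iP+A cells and 14 in iGPA cells, and at Ush1g 0, 4, 1 and 7.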

How the data were processed

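ChIP-seq peaks of Atoh1, Pou4f3 and Gfi1 in doxycycline-treated embryoid bodies were analysed from 9 peak lists and their 9 lists of kept summits. Per the study's methods, reads were trimmed with Trimmomatic, aligned to mm9 with Bowtie 2 and freed of duplicates with Picard, poorly mapped and blacklisted reads were removed, and peaks were called with MACS 2 on merged replicates against merged inputs. Versions are not given in the sources used here. The deposited fold enrichment over local background (a ratio) and the −log10 p at the summit were used as the authors' peak caller gave them. The deposited −log10 q was not used.

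A kept summit was given to a gene when it lay in the gene body (GENCODE M1 annotation, build NCBIM37, which is mm9) or within 50 kb of it. Windows of 300 bp on summits were joined into sites when they shared 1 bp. Sequence patterns were matched on both strands in 250 bp around summits. A summit was called in a tandem repeat when at least 80% of the 100 bp around it repeated at a unit of up to 12 bp, and units of up to 60 bp were searched in 200 bp after the data were seen. Shares carry exact Clopper-Pearson 95% intervals. No test was made, because merged replicates leave no spread. The counting steps were tested on simulated data. Python 3.11.15, numpy 2.4.6, pandas 2.3.3, scipy 1.17.1 and pysam 0.24.0 were used.

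The members and lists were chosen with earlier results of these data known. Named were all 7 genes, each site in 3 or more lists, the summit with the highest −log10 p of each gene, each site within 1 kb of an annotated start of a member, the closest gene on another chromosome for each member, and the 3 related genes with the most summits. Further summits were named after their values were seen. Alternatives changed the flank, the site window, the peak threshold, the list length, the peak set and the assignment to genes.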

Additional observations from a re-analysis of the deposited data

Results flagged for a closer look

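A signal outside the kept summits was found at 1 gene. At Myo3a, 20 called peaks are missing from the summit lists, against 4 kept summits, and they are the only left-out peaks of the 7 genes that occur in more than 2 lists. They lie within 2257 bp (chr2:22443285-22445541), 294 to 296 kb from the Myo3a start, and 9 of their summits fall in the pseudogenes Gm13340 and Gm13341. For Atoh1, iAtoh1 cells had 4 of them, iG+A cells 5, iP+A cells 3 and iGPA cells 3, and for Pou4f3, iG+P cells had 2 and iP+A cells 3. Their folds ran from 1.96 to 7.43 and their −log10 p from 6.65 to 143, the highest in the iP+A Atoh1 list, whereas the highest −log10 p of a kept Myo3a summit was 7.94. Of the 31-base words in these peaks, 77.5% occur in the mitochondrial chromosome of mm9, against 0 of the words in the 74 kept sites of the 7 genes, and the part of this in their signal was not tested. How the kept peaks were chosen is not given in the sources used here.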

How the results depend on the processing

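Counts were compared with the reported ones and taken as moved when they differed by more than 1.5 times, and the cause of a move was not tested beyond what each setting does by its construction. No paired analysis was possible because peaks were called on merged replicates, and for the same reason no replicate could be left out. The reported counts of summits were 11, 15, 11 and 32 for Atoh1 (iAtoh1, iG+A, iP+A, iGPA), 24, 28, 13 and 21 for Pou4f3 (iPou4f3, iG+P, iP+A, iGPA) and 3 for Gfi1. When peaks needed a −log10 p of 10 or more, the Atoh1 counts became 3, 8, 2 and 10, the Pou4f3 counts 13 in iPou4f3, 10 in iG+P and 6 in iP+A cells, and the number of genes with an Atoh1 summit 1 in iAtoh1 and 1 in iP+A cells. This setting also left 31 sites in place of 74, 10 Atoh1 sites in iGPA cells in place of 31, 1 in both iGPA and iAtoh1 cells in place of 9, 5 in iGPA cells only in place of 18, 6 Pou4f3 sites in all 4 lines in place of 11, and 2 sites with both factors in iGPA cells in place of 4 and 0 in iP+A cells in place of 2. With lists of equal length the iGPA Atoh1 count became 18 and the iG+P Pou4f3 count 16, with 49 sites, 18 iGPA Atoh1 sites and 9 of them in iGPA cells only. With the gene body alone the count became 6 for Atoh1 in iP+A cells, 9, 15, 5 and 10 for Pou4f3 and 0 for Gfi1, with 42 sites, 5 Pou4f3 sites in all 4 lines, 1 site with both factors in iGPA and 1 in iP+A cells, 3 genes with an iP+A Atoh1 summit and 0 with Gfi1. With 10 kb on each side it became 6 for Atoh1 in iP+A cells, 12, 17, 6 and 12 for Pou4f3 and 1 for Gfi1, with 6 Pou4f3 sites in all 4 lines, 1 site with both factors in iGPA and 1 in iP+A cells, 3 genes with an iP+A Atoh1 summit and 1 with Gfi1. With 100 kb on each side the iG+A Atoh1 count became 24 and the Gfi1 count 6. Giving each summit to its nearest start left 7 Atoh1 summits in iAtoh1, 7 in iP+A and 19 in iGPA cells, 12, 17 and 12 Pou4f3 summits in iPou4f3, iG+P and iGPA cells, 1 for Gfi1, 3 genes with an iP+A Atoh1 summit and 1 with Gfi1. Sites with both factors in iP+A cells became 6 with all called peaks and 1 with 100 bp windows. Those added by all called peaks were the site upstream of Myo15 and sites among the left-out Myo3a peaks described above. Windows of 1000 bp, full peak intervals and leaving out tandem repeats moved none of the 7, 7 and 18 counts they were tried on, and leaving out repeats with units of up to 60 bp, a setting chosen after seeing the data, moved none of 25. Of the 6 pattern shares, 1 moved with 100 bp around the summit, the E-box at iGPA Pou4f3 summits, to 0 of 21. At Myo7a the iGPA Atoh1 count of 8 became 2 at the stricter threshold, 3 with the gene body alone, 5 with 10 kb on each side, with lists of equal length and by nearest start, and 10 with 100 kb on each side, and it stayed at 8 with all called peaks and without tandem repeats. The Pou4f3 count of Myo7a was 0 in all 4 lists under each of these settings but 100 kb, where iG+P cells had 1. The settings for sites in iGPA cells only and in all 4 Pou4f3 lists were chosen after seeing the data.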

Other observations

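The genes on other chromosomes whose 9 values were closest to those of each myosin were Slc13a2 for Myo3a (distance 0.500), Nrp2 for Myo3b (0.556), Shank2 for Myo6 (1.02), Tk2 for Myo7a (0.483), Cep110 for Myo15 (1.31), Akap13 for Myo10 (0.951) and Tnni3k for Myo1c (1.38). Each value was log2 of 1 plus the summed −log10 p of the kept summits within the window in a list, over 9 lists, and the median distance to all genes was between 7.70 and 11.9. The closest gene to Myo7a, Tk2, had 2 Atoh1 summits in iG+A cells, 1 in iP+A cells and 2 in iGPA cells and none in the other lists.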
